A study of Mus musculus with 23 samples.

Results

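AP-1 is a transcription factor built from pairs of FOS, JUN and ATF family proteins, and the genes of several of its subunits belong to the immediate early genes, which cells transcribe within minutes of a stimulus. The group described here was chosen by symbol and holds 10 of these genes: the FOS family members Fos, Fosb, Fosl1 and Fosl2, the JUN family members Jun, Junb and Jund, the stress-responsive AP-1 partner Atf3, and Egr1 and Ier2, which encode nuclear factors outside AP-1 that are induced in the same early wave. All 10 were listed in each of the 2 deposited tables of normalized counts, which held 35455 and 35454 genes, and all 10 had a mean of at least 10 and were tested in each table.

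The study compared flow sorted tdTomato+ cells of mouse lung tumors, and RNA was sequenced in 23 libraries. In 14 libraries, BRAFV600E tumors (genotype CAT/+; 1 library at 2 weeks, 3 at 6 weeks and 2 at 12 weeks after induction) were set against BRAFV600E/PI3KαH1047R tumors (CAT/+; HR/+; 2, 4 and 2 libraries). In the other 9, all at 12 weeks, 5 PGC1α het libraries (CAT/+ with 1 floxed Ppargc1a allele and 1 normal allele) were set against 4 PGC1α null libraries (CAT/+ with both alleles floxed). The floxed allele is a conditional null, which CRE inactivates. All groups thus carried the BRAFV600E-tdTomato allele, activated by an adenovirus whose CRE is driven by the Sftpc promoter and so starts tumors in alveolar type 2 (AT2) cells. The mice were between 3 and 4 months old and of mixed C57BL/6, 129 and FVB background, single animals were the replicates, and the 12 week mice of the 14 libraries had received less virus than the 2 and 6 week mice, so titer and time cannot be told apart. Lungs were minced, digested at 37°C with a collagenase blend and sorted before lysis, and no library of undigested lung is among those analysed here.

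RAF, MEK and ERK signaling, which BRAFV600E activates, is a classical inducer of this gene class: ERK phosphorylates ELK factors bound beside SRF at promoters such as those of Fos and Egr1, and JNK and p38 stress kinases act on JUN and ATF2. FOS proteins bind DNA only in a pair with a JUN protein, whereas JUN proteins also pair among themselves, and FOSL1 and FOSL2 are usually induced later and last longer than FOS and FOSB. In tissues prepared by enzymatic digestion at 37°C these genes are also known to be induced by the preparation itself, together with heat shock chaperones.

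The promoters of Fos, Fosb, Jun and Atf3 are shown as examples from the 6 genes, with Junb and Ier2, that had the same highest and lowest PGC1α libraries. Of the 10 genes, 7 matched a RefSeq promoter (GRCm38.p6). The 250 bases before the RefSeq start are printed from 5′ to 3′ on the strand of the gene. In all, 10 motifs were searched on both strands of these 250 bases. Sites farther upstream, those of SRF and ETS factors included, were not looked for, so a motif not found is absent from the window only. Egr1, Fosl1 and Ier2 had no matched promoter. They were TGACG, the core of the cyclic AMP response site, the full site TGACGTCA, which contains it, the AP-1 site (TGACTCA or TGAGTCA), the JUN promoter sites TGACATCA and TTACCTCA, the TATA box (TATAAA), the CArG box of SRF, the GC box (GGGCGG), the CCAAT box and the ETS site CCGGAAG. Capitals mark the matches to 3 of them, the TGACG core, the JUN site TGACATCA and the TATA box, and these were picked for display after the matches were seen.
Fos, chr12:85473640-85473889, plus strand: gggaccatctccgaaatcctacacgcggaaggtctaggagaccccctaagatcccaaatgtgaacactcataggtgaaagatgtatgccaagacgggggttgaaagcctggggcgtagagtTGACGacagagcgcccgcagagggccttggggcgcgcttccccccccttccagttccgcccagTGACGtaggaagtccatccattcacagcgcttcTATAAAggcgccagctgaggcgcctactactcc
Fosb, chr7:19310046-19310295, minus strand: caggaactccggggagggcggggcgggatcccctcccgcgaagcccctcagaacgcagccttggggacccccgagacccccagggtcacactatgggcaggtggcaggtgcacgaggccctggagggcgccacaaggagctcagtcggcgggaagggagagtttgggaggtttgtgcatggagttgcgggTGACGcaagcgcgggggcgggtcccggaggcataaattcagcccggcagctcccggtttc
Jun, chr4:95052223-95052472, minus strand: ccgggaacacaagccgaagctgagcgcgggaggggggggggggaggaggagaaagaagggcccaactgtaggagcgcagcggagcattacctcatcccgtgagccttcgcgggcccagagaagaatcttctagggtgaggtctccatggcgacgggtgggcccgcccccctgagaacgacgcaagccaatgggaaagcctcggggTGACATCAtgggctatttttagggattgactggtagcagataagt
Atf3, chr1:191183334-191183583, minus strand: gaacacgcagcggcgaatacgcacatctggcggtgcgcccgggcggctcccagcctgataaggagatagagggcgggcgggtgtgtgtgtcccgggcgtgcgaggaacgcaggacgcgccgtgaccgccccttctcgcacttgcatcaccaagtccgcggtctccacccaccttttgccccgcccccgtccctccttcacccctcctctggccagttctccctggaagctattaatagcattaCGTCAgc
TGACG stood in 4 of the 7 promoters (Fos, Fosb, Atf3 and Junb) against 17.8% of 32851 promoters of the same length. Fos held 2 copies, 129 to 125 and 66 to 62 bases before the start, Fosb held 1 at 60 to 56 bases, and Atf3 held 1 on the other strand at 7 to 3 bases. Jun held TGACATCA 45 to 38 bases before the start, a site found in 2.93% of all promoters, and Fos was the 1 gene of the 7 with TATAAA (12.4% of all). Jun also held TTACCTCA at 164 to 157 bases (0.728% of all). GGGCGG was in 5 of the 7 and in 32.7% of all, and CCAAT was in 2 of the 7 (Jun and Junb) and in 33.8%. The full site, the AP-1 site, the CArG box and the ETS site were in 0 of the 7 windows and in 1.55%, 4.46%, 1.47% and 6.91% of all promoters. The Atf3 and Fosl2 windows lie inside the genes that GENCODE vM21 draws, and the Jund window ends well before its GENCODE start, so these 3 windows do not adjoin the GENCODE starts.

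Before the genotypes are compared, several properties of the libraries bear on the values. Normalized counts of a library summed to between 16433820 and 20287296 in the 14 libraries and between 7115753 and 9159567 in the 9, and the tables were normalized separately, so levels are not tested across them. In the 14 libraries the 12 week BRAFV600E/PI3KαH1047R libraries go against their sex labels: Kdm5d, which lies on the Y chromosome, stood at 502 normalized counts in replicate 1, labelled male, and at 4728 in replicate 2, labelled female. The 12 week genotype comparison and the interaction rest on these libraries and have no value without them. At 2 weeks the BRAFV600E library was female and both BRAFV600E/PI3KαH1047R libraries were male, and there the effects of sex and of genotype cannot be told apart. AT2 markers were abundant in every library, with a sum over 10 genes of 77889 to 1464855 in the 14 libraries. The 15 endothelial markers summed to 18202 to 317216, and in 3 BRAFV600E/PI3KαH1047R libraries they exceeded the AT2 sum, namely both at 2 weeks (228076 against 160193, and 198130 against 77889) and 6 week replicate 1 (317216 against 301690). In bulk libraries fewer cells of a type and less RNA per cell cannot be told apart. The targeted gene of the second design, Ppargc1a, had 75.8, 170, 155, 200 and 561 normalized counts in PGC1α het replicates 1 to 5 and 72.7, 38.0, 51.6 and 124 in PGC1α null replicates 1 to 4. In 3 of the 4 null libraries it was below every het library (log2 fold change -1.51 ± 0.50 SE, adjusted p = 0.978 by limma; exact permutation test, two-sided, p = 0.0397).

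For the addition of PI3KαH1047R, none of the 10 genes passed the threshold used. Values were compared as log2(normalized count + 1) with limma's moderated test, Benjamini-Hochberg adjusted over all 17558 genes with a mean of at least 10. With weeks pooled, 0 of the 10 had a limma adjusted p-value under 0.05, beside 0.0228% of all genes (4 of 17558), so this threshold was passed by hardly any gene. At an unadjusted p-value under 0.05 there was 1 of the 10, Egr1, beside 6.83% of all genes (3.38% lower). Groups did not overlap for 0 of the 10, beside 0.211% of all genes. Log2 fold changes were positive for 7 of the 10 and negative for 3, with a median of 0.19 beside 0.02 over all genes tested, and 51.8% of all genes were positive. The 95% intervals were wide: for Atf3 the interval ran from -1.19 to 1.30, for Jun from -0.75 to 1.16 and for Fos from -0.57 to 1.10, so that a 2-fold higher level lay inside each of them, while for Fosl2 it ran from -0.49 to 0.26.

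Egr1, a zinc finger factor and a direct readout of ERK and SRF activity, had the largest of these differences. In BRAFV600E cells it had 8983 normalized counts at 2 weeks, 11259, 11065 and 2258 at 6 weeks (replicates 1 to 3) and 6071 and 14056 at 12 weeks. In BRAFV600E/PI3KαH1047R cells it had 1271 and 1781 at 2 weeks, 4309, 4152, 4590 and 6429 at 6 weeks and 7159 and 6491 at 12 weeks. All 8 libraries with PI3KαH1047R were below the BRAFV600E mean of 8949 ± 4218 (SD, n = 6), but BRAFV600E 6 week replicate 3 was lower than all but the 2 week libraries, so the groups overlapped. The log2 fold change was -0.98 (standard error 0.45, 95% interval -1.94 to -0.02; limma p = 0.0451, adjusted p = 0.725; two-sided exact permutation p = 0.0776 over 3003 splits). It was -0.48 (limma adjusted p = 0.999) without the 2 week libraries, -0.52 (adjusted p = 0.953) with sex as a factor, -1.25 (adjusted p = 0.455) without the 12 week BRAFV600E/PI3KαH1047R libraries and -1.34 (adjusted p = 0.435) without BRAFV600E 6 week replicate 3. Leaving out each library in turn gave log2 fold changes from -1.34 to -0.75, the latter without BRAFV600E/PI3KαH1047R 2 week replicate 1. Among BRAFV600E libraries, leaving out 6 week replicate 3 or 12 week replicate 1 kept an unadjusted limma p-value under 0.05. Among BRAFV600E/PI3KαH1047R libraries, leaving out 6 week replicate 4 or either 12 week library kept it. Leaving out any other library took it above 0.05. The sex factor used the labels, with the 2 that Kdm5d goes against left as given. By these labels sex was unbalanced, with 5 female and 1 male BRAFV600E libraries and 3 female and 5 male BRAFV600E/PI3KαH1047R libraries. The BRAFV600E male was 6 week replicate 3, with 4319 normalized counts of Kdm5d. By week the difference was -2.58 at 2 weeks (standard error 0.79, limma adjusted p = 0.196), -0.45 at 6 weeks and -0.44 at 12 weeks (limma adjusted p = 1 at each). Cell type markers differed too, most at 2 weeks. At 2 weeks all 10 AT2 markers had negative log2 fold changes (median -2.55, 10 at an unadjusted p-value under 0.05) and all 15 endothelial markers positive ones (median 2.75, 13 unadjusted). With weeks pooled the AT2 markers were again 10 of 10 negative (median -0.95) and the endothelial markers 15 of 15 positive (median 0.86). Macrophage markers were 14 of 15 positive at 2 weeks (median 2.18, 5 unadjusted) and 13 of 15 pooled (median 0.74, 3 unadjusted). Fibroblast markers were 9 of 10 (median 1.10) and 7 of 10 (median 0.59). AT2 markers were 9 of 10 negative at 6 weeks (median -0.43, 0 unadjusted) and 6 of 10 at 12 weeks (median -0.17, 1 unadjusted). Endothelial medians were 0.23 and 0.31 at these weeks. The part of these cells in the values of Egr1, Fos and Fosb was not tested.

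**Figure D1:**
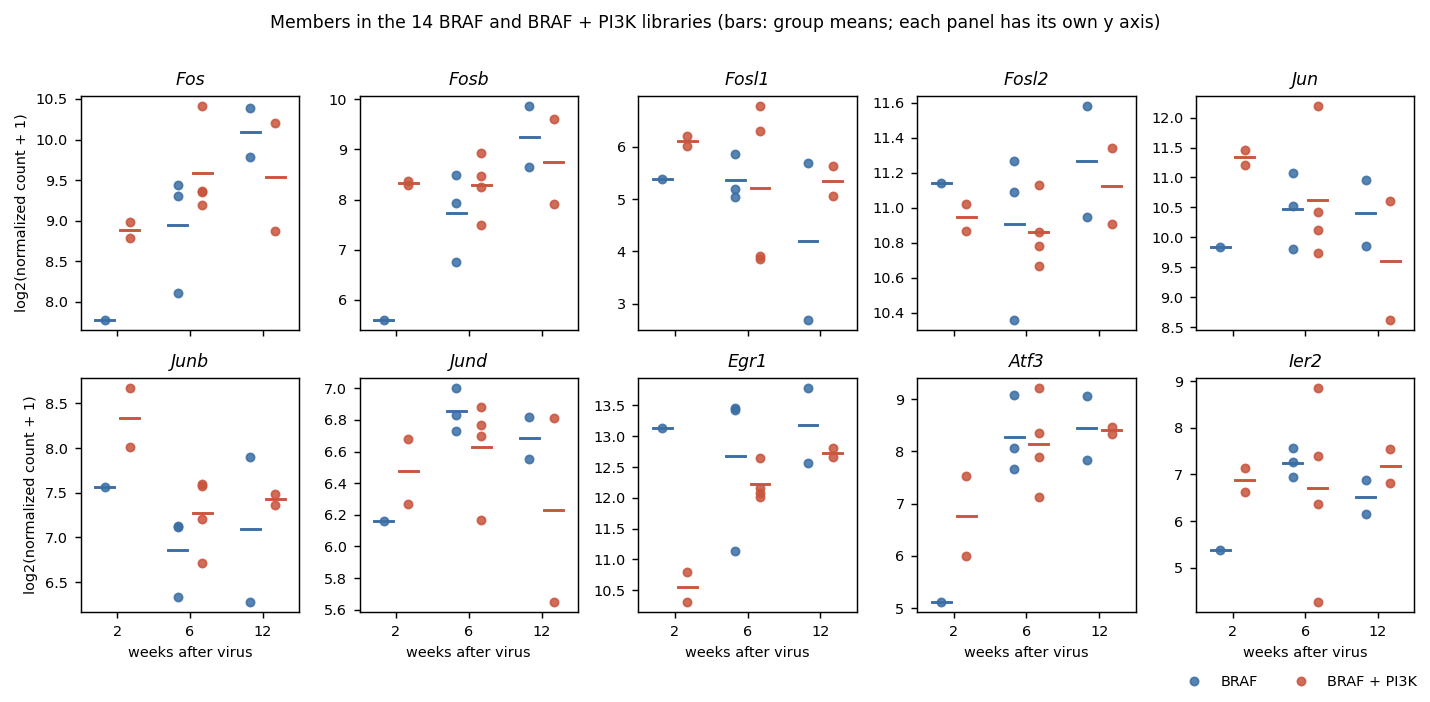
Log2(normalized count + 1) of the 10 genes in the 14 BRAFV600E (blue) and BRAFV600E/PI3KαH1047R (red) libraries at 2, 6 and 12 weeks after virus; points are libraries, bars are group means, and each panel has its own y axis. Genotypes overlap at 6 weeks for all 10 genes, and the single BRAFV600E library at 2 weeks holds the lowest Fos, Fosb and Atf3 values.

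Fos and Fosb, the genes of the short-lived FOS proteins, had estimates above 0 at 2 and 6 weeks and below 0 at 12 weeks, and none passed the adjusted threshold. Fosb had 47.5 normalized counts in the BRAFV600E library at 2 weeks and 330 and 309 with PI3KαH1047R, then 107, 245 and 358 against 482, 302, 355 and 179 at 6 weeks, and 927 and 401 against 239 and 776 at 12 weeks. Fos had 219 against 504 and 442 at 2 weeks, 275, 630 and 692 against 1361, 659, 656 and 588 at 6 weeks, and 1345 and 885 against 468 and 1175 at 12 weeks. The groups were apart at 2 weeks for each of these genes and overlapped at 6 and 12 weeks. The log2 fold change of Fosb was 2.72 at 2 weeks (standard error 0.85, limma adjusted p = 0.198), 0.55 at 6 weeks and -0.50 at 12 weeks, and that of Fos was 1.10, 0.64 and -0.56. The 2 week difference was not tested against later weeks. All 10 genes had groups that did not overlap at 2 weeks, but so did 71.7% of all genes tested, since 1 library was set against 2. At 2 weeks 0 of the 10 passed the adjusted threshold beside 0.0171% of all genes, and 2 (Fosb higher and Egr1 lower) had an unadjusted p-value under 0.05 beside 13.5% (6.93% higher and 6.57% lower). Log2 fold changes were positive for 8 of the 10, beside 50.4% of all genes.

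At 6 weeks, where 3 libraries were set against 4, 0 of the 10 genes had a limma adjusted p-value under 0.05 (0.0228% of all genes) and 0 had an unadjusted one (4.24%). The log2 fold changes ran from -0.53 (Ier2) to 0.64 (Fos), 4 positive and 6 negative, with a median of -0.09 beside 0.00 over all genes, of which 50.5% were positive. Groups did not overlap for 0 of the 10, beside 5.22% of all genes. The two-sided exact permutation p-values lay between 0.200 (Junb) and 0.914 (Jun), where the smallest possible with 35 splits is 0.0286. At 12 weeks, with 2 libraries of each genotype, 3 were positive and 7 negative, between -0.80 (Jun) and 1.15 (Fosl1), beside 50.4% of all genes positive, with 0 not overlapping (29.2% of all genes), 0 at an adjusted p-value under 0.05 (0.0114% of all genes) and 0 at an unadjusted one (3.76%). Whether the genotype difference itself changed from 6 to 12 weeks was tested as an interaction, with 0 of the 10 at an adjusted p-value under 0.05 (0% of all genes) and 0 at an unadjusted one (2.87%). The interaction with the smallest p was that of Fos, -1.19 (95% interval -2.74 to 0.36, limma adjusted p = 1), and 4 of the 10 were positive beside 50.8% of all genes.

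In the JUN family the spread differed by member. Jun, the main partner of FOS, had 907 normalized counts in BRAFV600E cells at 2 weeks and 2364 and 2819 with PI3KαH1047R, 892, 1474 and 2163 against 4667, 1372, 1114 and 854 at 6 weeks, and 1990 and 928 against 393 and 1550 at 12 weeks. BRAFV600E/PI3KαH1047R libraries were thus both the highest (6 week replicate 1) and the lowest (12 week replicate 1) of the 14, and the pooled log2 fold change was 0.20 (standard error 0.45, limma adjusted p = 0.942). Junb, which often acts against JUN on growth genes, ran from 76.8 to 239 (median 138) in the 6 BRAFV600E libraries and from 104 to 406 (median 184) in the 8 with PI3KαH1047R. Of these 8, 7 were above the BRAFV600E mean, and the log2 fold change was 0.52 (standard error 0.33, 95% interval -0.17 to 1.21, limma adjusted p = 0.761). Jund, the JUN gene usually least tied to stimulation, kept to a narrow range of 70.5 to 127 and 49.3 to 117 in the same groups (log2 fold change -0.19, limma adjusted p = 0.894).

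Among the slower FOS relatives, Fosl2 was high and steady and Fosl1 low and uneven. Fosl2 ran from 1315 to 3057 (median 2215) normalized counts in BRAFV600E libraries and from 1634 to 2593 (median 1896) with PI3KαH1047R, and Fosl1 from 5.45 to 57.4 (median 38.1) and from 13.4 to 109 (median 56.0). The 95% interval of the genotype difference was correspondingly narrow for Fosl2 (-0.49 to 0.26) and wide for Fosl1 (-0.73 to 1.72). Ier2 ran from 40.8 to 188 (median 119) and from 18.3 to 460 (median 125), and BRAFV600E/PI3KαH1047R 6 week replicates 4 and 1 held its lowest and its highest value of the 14. Atf3 ran from 33.7 to 540 (median 249) and from 63.1 to 591 (median 280). For none of these 4 genes did the genotypes separate.

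**Figure D2:**
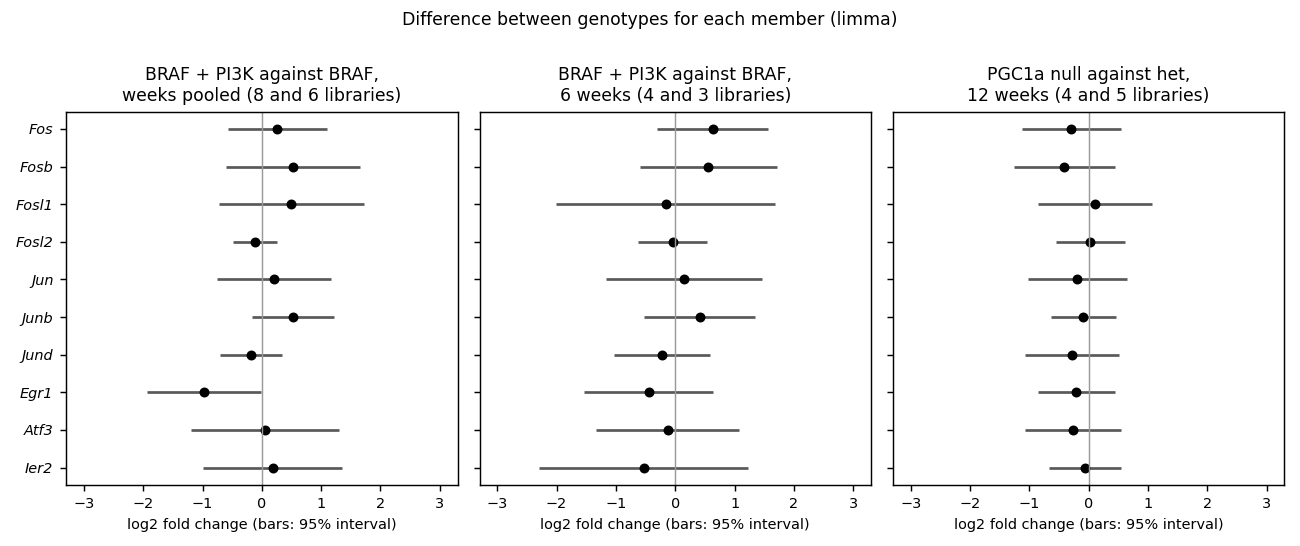
Log2 fold change of each gene with its 95% interval from limma, for BRAFV600E/PI3KαH1047R against BRAFV600E with weeks pooled and at 6 weeks, and for PGC1α null against het at 12 weeks. Every interval but that of Egr1 with weeks pooled (-1.94 to -0.02) crosses 0.

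Over time, Atf3 was higher and Junb lower at 6 than at 2 weeks, and neither passed the adjusted threshold. Atf3 had 33.7, 182 and 63.1 normalized counts in the 3 libraries at 2 weeks and 138 to 591 (median 269) in the 7 at 6 weeks, all 7 of them above the 2 week mean of 92.9 ± 78.6 (SD, n = 3). Its log2 fold change, with genotype in the fit, was 2.01 (standard error 0.52, 95% interval 0.89 to 3.14, limma adjusted p = 0.179), and it was 1.40 without the BRAFV600E library at 2 weeks. Junb had 188, 406 and 257 at 2 weeks and 79.4 to 193 (median 139) at 6 weeks, and all 7 were below the 2 week mean of 284 ± 111 (SD, n = 3). The log2 fold change of Junb was -0.94 (standard error 0.36, limma adjusted p = 0.328). The weeks overlapped for each gene, at 138 and 182 for Atf3 and at 188 to 193 for Junb. Of the 10 genes, 0 had a limma adjusted p-value under 0.05 beside 0.0513% of all genes, and these 2 had an unadjusted one beside 11.9% (6.58% higher and 5.35% lower). In all 6 of the 10 were positive (51.4% of all genes) and 0 did not overlap (3.09%). Between 6 and 12 weeks 0 of the 10 passed at either threshold (0% and 5.31% of all genes), 6 were positive (49.6%) and 0 did not overlap (0.718%). The smallest p was that of Fosb, from 290 ± 125 (SD, n = 7) to 586 ± 320 (SD, n = 4; log2 fold change 1.01, standard error 0.53, limma adjusted p = 0.901). Without the 12 week BRAFV600E/PI3KαH1047R libraries 2 of the 10 had an unadjusted limma p-value under 0.05 between these weeks, beside 608 of 17505 genes. AT2 markers were also lower at 2 than at 6 weeks, with 10 of 10 log2 fold changes positive, a median of 1.65 and 8 at an unadjusted p-value under 0.05. This lay in the BRAFV600E/PI3KαH1047R libraries, where their mean log2 level was 12.88 and 11.92 at 2 weeks and 13.54 to 15.13 at 6 weeks. The BRAFV600E library at 2 weeks was at 14.98, inside the BRAFV600E 6 week range of 14.42 to 15.53. Between 6 and 12 weeks 13 of 15 macrophage markers were positive (median 1.24, 7 unadjusted) and 8 of 10 fibroblast markers negative (median -0.91, 4 unadjusted). The part of these cells in the time differences was not tested.

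In the second design, which asked what loss of PGC1α changes, none of the 10 genes passed the threshold between PGC1α null and het tumors. Of the 10 genes, 0 had a limma adjusted p-value under 0.05 (0% of 17424 genes tested) and 0 an unadjusted one, beside 3.83% of all genes (667). Log2 fold changes ran from -0.41 (Fosb) to 0.10 (Fosl1), 8 of them negative and 2 positive (51.1% of all genes), with a median of -0.20 beside 0.01 over all genes. Groups did not overlap for 0 of the 10 (1.40% of all genes), and the adjusted p-value was 0.998 for each gene. For Fosb the 95% interval was -1.26 to 0.44, and for Junb, whose interval was the narrowest, -0.64 to 0.46. Two-sided exact permutation p-values lay between 0.452 (Fosb) and 0.929 (Fosl2), where 126 splits allow 0.00794. Markers of other cells differed in the same comparison: 15 of 15 endothelial markers were positive (median 2.07, 13 at an unadjusted p-value under 0.05), 9 of 9 fibroblast markers (median 1.26, 5 unadjusted) and 13 of 15 macrophage markers (median 1.13, 7 unadjusted). The part of these cells in the values of the 10 genes was not tested.

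What stood out among these 9 libraries was that most of the 10 genes were high or low in the same animals. Fos had 2420, 1666, 3843, 2077 and 1966 normalized counts in PGC1α het replicates 1 to 5 and 2257, 4148, 912 and 1449 in PGC1α null replicates 1 to 4. Jun had 2731, 1505, 2818, 1562 and 1943 in the het libraries and 1801, 4320, 883 and 1458 in the null libraries. Atf3 had 1287, 852, 2027, 961 and 1020 and then 915, 2167, 499 and 917. For these 3 genes null replicate 2 was the highest library, het replicate 3 the next and null replicate 3 the lowest, so the whole range of a gene lay within 1 genotype. Fosb, at 4300, 4047, 6668, 3301 and 5181 in the het and 4027, 7637, 1452 and 3123 in the null libraries, had the same highest, next and lowest libraries, as did Junb (676, 615 and 315) and Ier2 (683, 482 and 236). Egr1 was highest in het replicate 3 (18025) and next in null replicate 2 (15402), and lowest in null replicate 3 (7670). The order did not hold for the other members. Fosl1 was lowest in het replicate 5 (66.3) and had 208 in null replicate 3. Jund (124) and Fosl2 (1036) were lowest in null replicate 1, and Fosl2 had 1719 in null replicate 3, below only het replicate 3 (2112) and null replicate 2 (2435).

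**Figure D3:**
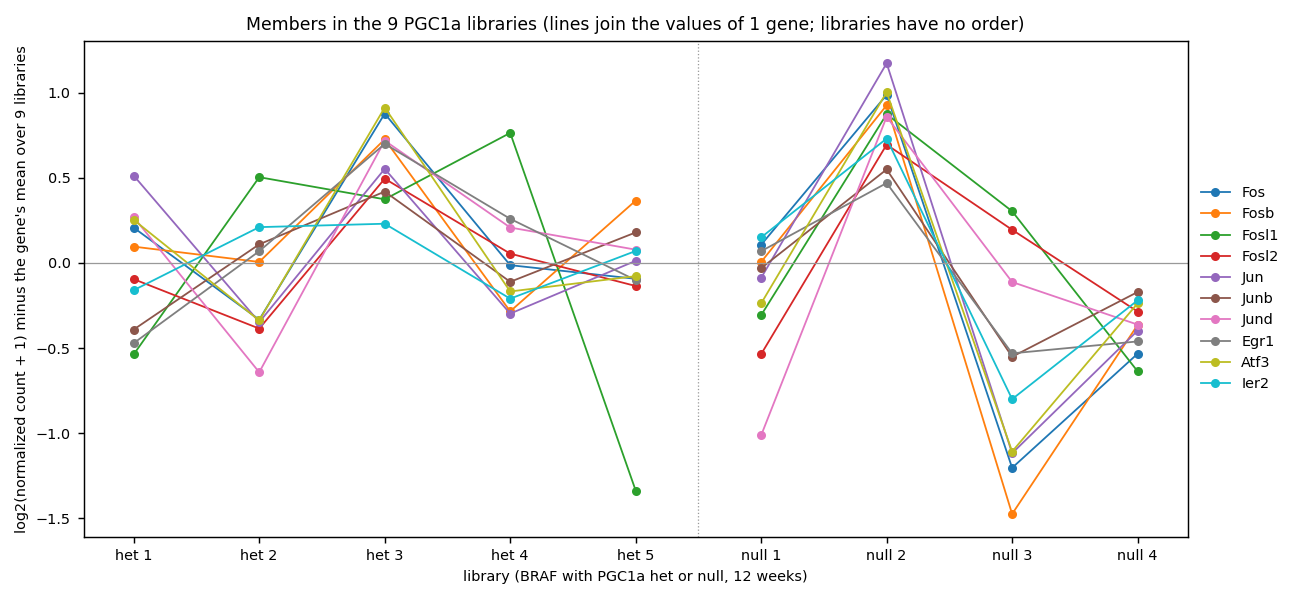
Log2(normalized count + 1) of each gene minus its mean over the 9 PGC1α libraries, by library, with 1 colored line for each gene. All 10 genes are above their mean in null replicate 2 and in het replicate 3, and 8 of the 10, all but Fosl1 and Fosl2, are below it in null replicate 3.

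Joint movement was measured for all 45 pairs in each table as Pearson's r of log2(normalized count + 1) across libraries, with permutation p-values adjusted over the 90 relations. In the PGC1α table r was above 0.5 in 29 of the 45 pairs, with a median of 0.64 and 0 negative values, and 13 pairs had an adjusted p-value under 0.05. By Spearman's rho fewer pairs of this table passed. They were Fos, Fosb and Atf3 with Jun, Junb with Ier2 and Fosl2 with Jund (adjusted permutation p = 0.0159 to 0.0461). In the PI3K table r was above 0.5 in 7 pairs, with a median of 0.14 and 18 negative values, and 2 pairs had an adjusted p-value under 0.05. For comparison, between each of the 10 genes and every other gene with a mean of at least 100, r was above 0.5 in 18.6% of pairs in the PGC1α table (5.74% to 36.7% by gene; median r 0.17) and in 8.09% in the PI3K table (3.50% to 21.8%; median r 0.03). It was negative in 35.7% and 46.8% of those pairs, and the 18 of 45 negative pairs of the PI3K table are near its share. Without the 2 libraries farthest from the median of the first gene, 25 pairs of the PGC1α table were above 0.5 and 6 were negative, among them Fosl2 with Ier2 (0.26 to -0.82) and with Junb (0.45 to -0.60). Of the 13 pairs with an adjusted p-value under 0.05, 11 stayed above 0.5, and Fos with Ier2 (0.84 to 0.40) and Jun with Ier2 (0.82 to 0.21) did not, so the latter relations rest on those libraries. Only 4 pairs were above 0.5 in each table. The pairs of a table share libraries, so they are not independent of one another.

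Fos and Fosb were high and low in the same libraries of each table. Over the 14 libraries r was 0.91 (permutation p = 2.0e-05, adjusted p = 0.00157; Spearman's rho 0.88, permutation p = 1.3e-04, adjusted p = 0.0117). It was 0.82 without the 2 libraries farthest from the Fos median, 0.98 within the 6 BRAFV600E libraries, 0.75 within the 8 BRAFV600E/PI3KαH1047R libraries and 0.92 for deviations from genotype and week means. Over the 9 PGC1α libraries r was 0.93 (exact permutation p = 6.61e-04, adjusted p = 0.00784; rho 0.82, exact permutation p = 0.0108, adjusted p = 0.0570), 0.79 without the 2 farthest libraries and 0.93 for deviations from genotype means. The ratio of Fosb to Fos normalized counts within a library was 0.217 to 0.699 (median 0.484) in the 14 libraries and 1.59 to 2.64 (median 1.78) in the 9. The lowest ratio of the second table thus lay above the highest of the first. The tables differ in genotype, in the weeks they cover and in the series of library numbers in their titles, which cannot be told apart here. They also differ in markers of other cells, with endothelial sums of 18202 to 317216 in the first and 1221 to 4441 in the second.

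For Fos and Atf3 the relation was also positive, with r of 0.74 over 14 libraries (permutation p = 0.00267, adjusted p = 0.0200; rho 0.68, permutation p = 0.00930, adjusted p = 0.0558) and 0.97 over 9 (exact permutation p = 1.68e-04, adjusted p = 0.00378; rho 0.85, exact permutation p = 0.00607, adjusted p = 0.0531). Without the 2 libraries farthest from the Fos median these were 0.64 and 0.90. For Fos and Jun r was 0.95 over the 9 libraries (exact permutation p = 5.24e-05, adjusted p = 0.00157; rho 0.95, exact permutation p = 3.53e-04, adjusted p = 0.0159; r 0.85 without the 2 farthest). Over the 14 libraries it was 0.47 (permutation p = 0.0914, adjusted p = 0.229; rho 0.45, permutation p = 0.104, adjusted p = 0.249; r 0.38 without the 2 farthest), while the deviations from genotype and week means had r of 0.93. For Fos and Egr1 r was -0.06 over the 14 libraries (permutation p = 0.850, adjusted p = 0.879; rho -0.13, permutation p = 0.648, adjusted p = 0.747; r 0.36 without the 2 farthest and -0.50 for deviations from genotype and week means) and 0.79 over the 9 (exact permutation p = 0.0109, adjusted p = 0.0546; rho 0.65, exact permutation p = 0.0666, adjusted p = 0.200; r 0.68 without the 2 farthest). Whether these relations differ between the tables was not tested.

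**Figure D4:**
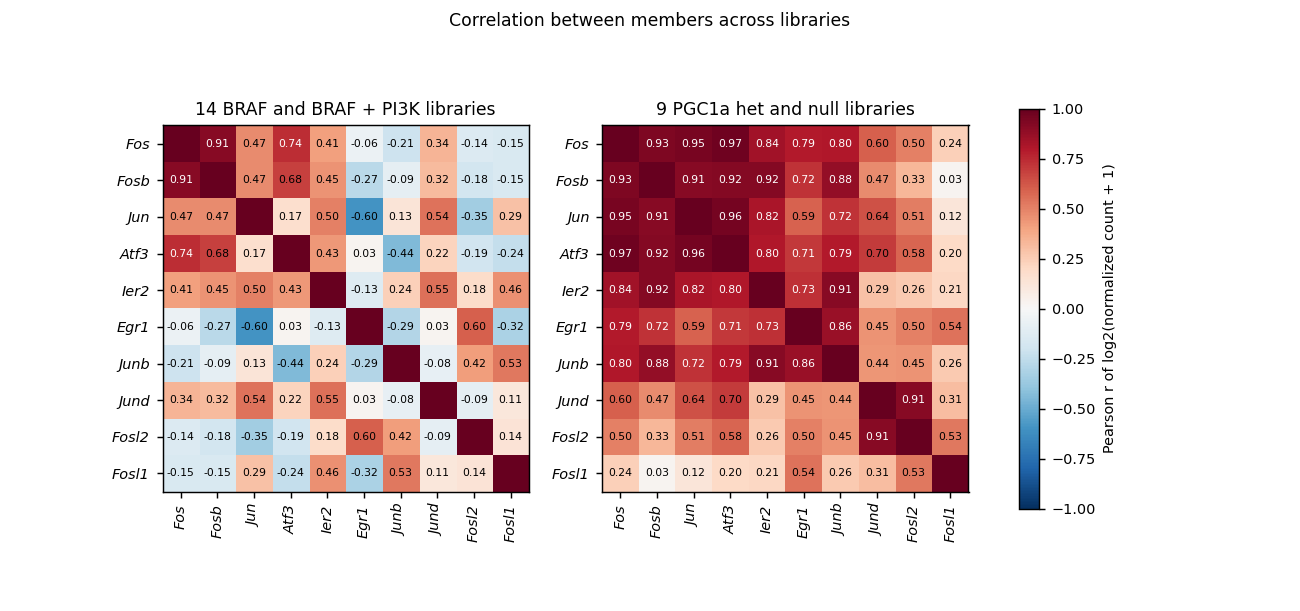
Pearson's r of log2(normalized count + 1) for every pair of the 10 genes, across the 14 BRAFV600E and BRAFV600E/PI3KαH1047R libraries (left) and the 9 PGC1α libraries (right), on a color scale from -1 to 1. Fos and Fosb have r of 0.91 and 0.93, and 18 pairs are negative on the left against 0 on the right, where 46.8% and 35.7% of the pairs of these genes with other genes are negative.

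Over all genes with a mean of at least 100, the 5 genes most like Fos by Pearson's r across the 14 libraries were Fosb (0.914), Rnasek (0.841), Zfp760 (0.837), Aptx (0.802) and Yipf5 (0.792), of 11545 genes, and Atf3 ranked 11. Across the 9 PGC1α libraries they were Atf3 (0.966), Jun (0.946), Rabac1 (0.932), Msi2 (0.930) and Srsf2 (0.928), of 9230 genes, and Fosb ranked 6 (0.928). The genes most like Jund were Tm9sf3 (0.931), Ddo (0.918), Polr2a (0.853), Fads1 (0.849) and Hmox2 (0.844) over the 14 libraries. Over the 9 they were Cybrd1 (0.968), D1Ertd622e (0.945), Cand1 (0.943), Atp2a3 (0.938) and Fbxo33 (0.930), with Fosl2 at rank 15 (0.914). Those most like Fosl1 were Nfyb (0.871), Kctd20 (0.837), Rpl27a (0.836), Arhgef7 (0.830) and Zfp712 (0.817) over the 14, and Cops8 (0.976), Dock5 (0.972), Nop14 (0.966), Sec11a (0.966) and Fam32a (0.964) over the 9. No member of the group was among the 5 genes most like Jund or Fosl1 in either table. With so few libraries, high values of r occur for many genes, and these ranks are a description.

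The spread between libraries of 1 group also differed by gene. Within genotype and week groups of the 14 libraries, the SD of log2 values was 1.24 for Fosl1 and 1.22 for Ier2, larger than for 83.7% and 83.2% of the 17558 genes tested, and 0.93 for Jun. It was 0.33 for Fosl2 and 0.38 for Jund, larger than for 14.4% and 21.2%, and 0.62 for Fos, beside a median of 0.60 over all genes. In the 9 libraries it lay between 0.38 (Junb) and 0.79 (Fosl1), with 0.70 for Fos and 0.71 for Fosb and Jun, beside a median of 0.57. As a class, then, the 10 genes were not uniformly more variable than other genes, since 7 of the 10 in the first table and 6 of the 10 in the second lay above the median. Fosl1 had the lowest mean of the 10 in each table.

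**Figure D5:**
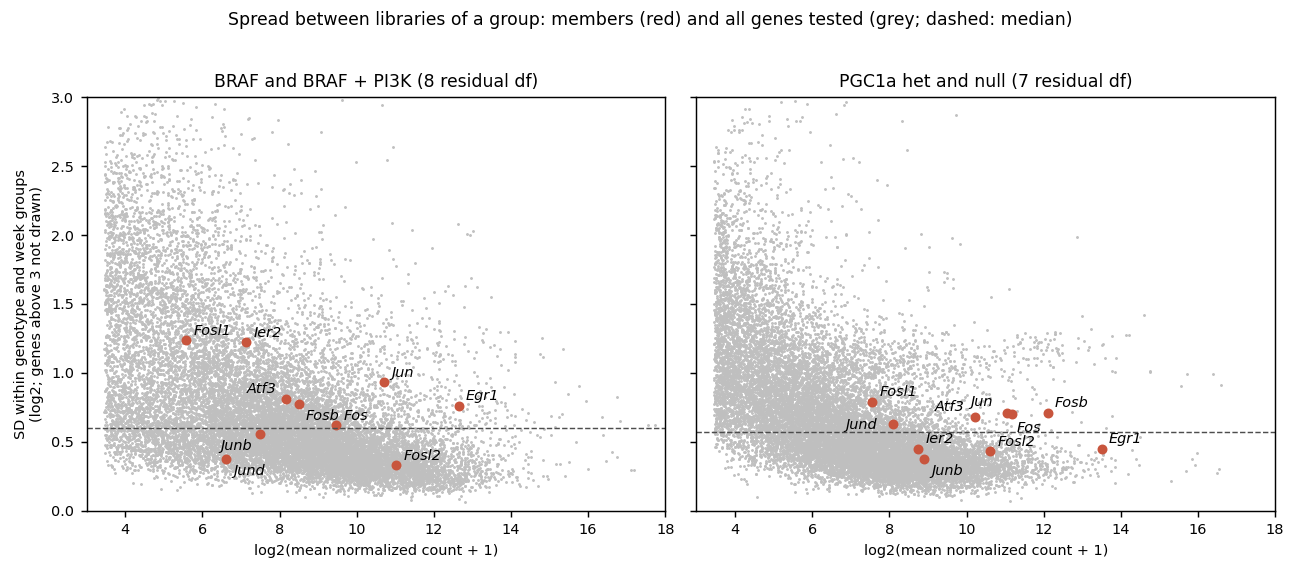
SD of log2(normalized count + 1) within genotype and week groups against the log2 mean, for all genes tested (grey; those above 3 not drawn) and the 10 genes (red), in the 14 libraries (left) and the 9 libraries (right); dashed lines are medians over all genes. Fos lies at 0.62 against a median of 0.60 on the left, and at 0.70 against 0.57 on the right.

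Per kilobase of the longest coding transcript, Egr1 was the most abundant of the 10 in each table, with medians of 1394 and 2596 normalized counts per kilobase. In the 14 libraries Jun (446), Fosl2 (311), Fos (305) and Atf3 (128) followed, then Junb (94.4), Fosb (84.4), Ier2 (78.2), Jund (62.4) and Fosl1 (23.9). In the 9 libraries Fosb (1070) and Fos (985) followed Egr1, then Jun (565), Atf3 (484), Ier2 (283), Junb (249), Fosl2 (215), Jund (159) and Fosl1 (112). The ranges of every pair of neighbors in these orders overlapped over the libraries, for instance 201 to 468 for Fosl2 and 104 to 645 for Fos in the 14. Fosb thus stood at place 7 in the first order and at place 2 in the second. The tables differ in genotype, weeks, library series and markers of other cells, which cannot be told apart here.

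Dissociation at 37°C is shared by all libraries. Beside the immediate early genes themselves, heat shock chaperones are a gene list here that such handling is known to touch. In the PGC1α table the mean log2 level of 20 chaperones was 9.56, 9.52, 10.65, 10.15 and 9.51 in het replicates 1 to 5, and it ran from 9.52 to 10.35 in the 4 null libraries. It was highest in het replicate 3 and null replicate 2, the 2 libraries where Fos, Fosb, Jun and Atf3 were highest, whereas null replicate 3, the lowest for those genes, was below 3 of the other 8 for chaperones. In the 14 libraries it ran from 10.20 to 11.24 without and from 9.95 to 10.88 with PI3KαH1047R, highest in BRAFV600E 12 week replicate 2. BRAFV600E/PI3KαH1047R 6 week replicate 1, the library with the most Fos, was at 10.88, the next highest value together with BRAFV600E 6 week replicate 1, which had 275 normalized counts of Fos. With weeks pooled 15 of the 20 chaperones had negative log2 fold changes (median -0.41). Of the 20, 0 had a limma adjusted p-value under 0.05 and 6 were lower at an unadjusted one, beside 3.38% of all genes lower. At 2 weeks 13 of the 20 were negative (median -0.52), and at 6 weeks 12 were (median -0.10), of which 3 and 0 had an unadjusted p-value under 0.05. In the 12 week comparison, where the libraries with doubtful sex labels stand, 19 of the 20 were negative (median -0.78) and 5 were lower at an unadjusted p-value under 0.05, beside 3.76% of all genes in either direction. With weeks pooled the 3 with the smallest p were Hspd1 (-0.55), Hsph1 (-1.12) and Hspe1 (-0.63). The part of the preparation in the spread of the 10 genes was not tested.

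Other immediate early genes were highest in some of the same libraries as the 10. A list of 38 (36 tested in the first table and 37 in the second) had its highest mean log2 level in BRAFV600E/PI3KαH1047R 6 week replicate 1 (8.93, others 7.76 to 8.64), which was also the highest library for Fos, Jun, Ier2, Fosl1 and Atf3. That library had 317216 normalized counts over the 15 endothelial markers, the most of the 14, and an AT2 sum of 301690, and the part of endothelial RNA in its values was not tested. In the 9 libraries the list was highest in null replicate 2 (8.95) and het replicate 3 (8.40) and lowest in null replicate 3 (7.83). Fibroblast markers summed to 1704 in null replicate 2 and to 232 to 660 in the other 8 libraries, and the mean log2 level of 6 epithelial markers was highest in null replicate 2 (11.71) and het replicate 3 (11.70), with 10.47 to 11.54 elsewhere. Endothelial markers summed to 1221 to 1927 in the het and 2949 to 4441 in the null libraries, all 4 null libraries above all 5 het libraries. The part of these cells in the order of the libraries was not tested. By comparison, 25 of the 36 tested genes were positive with PI3KαH1047R (median 0.22) and 24 of the 37 in PGC1α null cells (median 0.07), with 0 at a limma adjusted p-value under 0.05 in either. The 3 with the smallest p were Trib1 (-1.09), Nfkbiz (0.56) and Ppp1r15a (0.94) in the first comparison and Dusp2 (1.70), Sgk1 (0.67) and Pim1 (0.50) in the second.

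In the rest of the pathway, too, no gene passed the adjusted threshold. Of 21 tested bZIP factors that can pair with or compete with AP-1 proteins, 14 were positive and 7 negative with PI3KαH1047R (median 0.13), and Batf2, which restrains AP-1 and is interferon inducible, had the smallest p (mean normalized counts of 13.2 without and 72.9 with PI3KαH1047R, log2 fold change 2.35 ± 0.67 SE, adjusted p = 0.425 by limma). Of 30 upstream kinases and SRF partners, 18 were positive and 12 negative (median 0.11), with Elk3 (0.96), Map2k6 (1.59) and Rps6ka2 (0.95) having the smallest p. Of 20 tested AP-1 target genes 10 were positive and 10 negative (median -0.01), and Mmp9 (2.13), Cd44 (-0.96) and Hmga1 (0.62) had the smallest p. In PGC1α null cells these 3 lists had medians of -0.07, -0.10 and -0.03, and their smallest p-values belonged to Maf (0.95), Map2k4 (-0.46) and Mmp2 (2.30). Across the 5 lists and 8 comparisons 0 genes had a limma adjusted p-value under 0.05.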

How the data were processed

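The deposited signal values are normalized counts that the authors made from 50-base single-end reads (Nugen Ovation Ultralow v2 libraries of sorted cells) with Salmon gene estimates scaled by DESeq2 in Galaxy, separately for 2 tables. The labels name GRCm38 and the annotation is not given in the sources used here. Reads were not recovered: 10.7% to 42.0% of values under 20 in a library were whole multiples of its commonest step within 0.01 step, so depth is unknown and no count model was run. The authors' comparison tables of fold changes and p-values were not used.

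Genes with a mean of at least 10 were compared as log2(normalized count + 1), a pseudocount of 1, with limma 3.58.1 (trend, moderated variance, two-sided, Benjamini-Hochberg over all genes, 0.05) in R 4.3.3. Fold changes on this scale understate changes of low genes. The main PI3K comparison pooled weeks. Comparisons by week used a mean for each genotype and week, which lets the single 2 week BRAFV600E library borrow the spread of the others. Time was compared with genotype in the fit. Single genes were also tested by exact permutation of labels, and correlations by 100000 permutations (14 libraries) or all 362880 (9 libraries), in Python 3.11.15 (scipy 1.17.1, numpy 2.4.6, pandas 2.3.3; plots in matplotlib 3.10.9). The two-sided permutation p is the share of splits with an absolute difference at least as large. It replaced a doubled one-sided tail after the first values were seen, and none of the 10 genes had p under 0.05 by either. The pairs tested were likewise widened from a few chosen pairs to all 45 after first values were seen. The fits were tested on simulated data. Promoters are from RefSeq (GRCm38.p6).

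The 10 genes and the lists were chosen with earlier results of these data known. Genes named are the 10, Ppargc1a, the 3 of each list with the smallest p in a comparison, and the 5 most like Fos, Jund and Fosl1. Alternatives were the pseudocount, the filter, scaling, sex, week, a replicate block and leaving out each library. Leaving out the 2 week or the 12 week PI3K libraries was an alternative chosen after seeing the data.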

Additional observations from a re-analysis of the deposited data

Results flagged for a closer look

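Single genes were tested in groups of 4 to 10 libraries for a library apart from the rest. Of these 50 tests (Dixon's test at 95%, which chance passes in about 1 in 20), 3 found one. Fos had 1361 normalized counts in BRAFV600E/PI3KαH1047R 6 week replicate 1, where the other 3 libraries of that group had 588 to 659. Fosl1 had 5.45 normalized counts in BRAFV600E 12 week replicate 1, where the other 5 BRAFV600E libraries had 31.9 to 57.4. Atf3 had 33.7 normalized counts in the BRAFV600E library at 2 weeks, where the other 5 BRAFV600E libraries had 201 to 540. The groups used for Fosl1 and Atf3 mixed weeks, and this library was the only BRAFV600E library at 2 weeks.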

How the results depend on the processing

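That 0 of the 10 genes passed the adjusted limma threshold held in each of the 8 comparisons under every alternative run, where the smallest adjusted p-value of any of the 10 was 0.0857. Of 1670 refitted log2 fold changes 1574 kept their direction. Outside the fits that left out 1 library, 18 turned. They were Jun -0.16, Atf3 -0.11 and Ier2 -0.09 for PI3K pooled without the 2 week libraries, and Atf3 -0.12 there and Jun 0.16 for 12 against 6 weeks without the 12 week PI3K libraries. With sex as a factor they were Fosl2 0.04 (PI3K at 2 weeks), Junb 0.04 and Atf3 -0.05 (interaction) and Fosl1 -0.02 (PGC1α null). With each library scaled to the same total they were Atf3 0.05 (PI3K at 12 weeks) and Fosl2 -0.03 (PGC1α null). Replicate numbers were not taken to pair animals, since deviations of same-numbered libraries correlated at -0.47 to 0.21. A replicate block changed no adjusted call among the 10, but took the counts at an unadjusted p-value under 0.05 from 1 to 0 for PI3K pooled (Egr1, p 0.0741), from 2 to 1 for PI3K at 2 weeks and from 2 to 1 for 6 against 2 weeks. With it the values that turned were Fosl1 0.30, Fosl2 0.02 and Ier2 0.28 (PI3K at 6 weeks), Fosl2 0.05 (6 against 2 weeks), Junb -0.01 (12 against 6 weeks), Atf3 -0.00 (interaction) and Fosl1 -0.22 (PGC1α null). For the time comparisons that block used the number across weeks, chosen after seeing the data. The cause was not tested. Leaving out each library in turn gave a change of direction for 41 results, with these lowest and highest log2 fold changes. For PI3K with weeks pooled these were Fos -0.01 to 0.51, Jun -0.03 to 0.48, Atf3 -0.48 to 0.32 and Ier2 -0.11 to 0.55. For PI3K at 6 weeks these were Fosl1 -0.68 to 0.30, Fosl2 -0.32 to 0.14, Jun -0.37 to 0.45, Atf3 -0.48 to 0.28 and Ier2 -1.24 to 0.28. For PI3K at 12 weeks these were Fos -1.22 to 0.11, Fosb -1.35 to 0.35, Fosl1 -0.36 to 2.65, Fosl2 -0.46 to 0.17, Jun -1.79 to 0.19, Junb -0.48 to 1.14, Jund -1.03 to 0.13, Egr1 -1.04 to 0.17 and Atf3 -0.66 to 0.56. For 6 against 2 weeks these were Fosb -0.21 to 1.07 and Jun -0.87 to 0.03. For 12 against 6 weeks these were Fosl1 -0.88 to 0.18, Jun -0.90 to 0.03, Junb -0.12 to 0.46, Atf3 -0.02 to 0.46 and Ier2 -0.55 to 0.22. For the interaction these were Fosl1 -0.20 to 2.81, Fosl2 -0.41 to 0.22, Jun -1.94 to 0.04, Junb -0.90 to 0.72, Jund -0.80 to 0.36, Egr1 -0.59 to 0.78 and Atf3 -0.53 to 0.69. For PGC1α null against het these were Fos -0.67 to 0.06, Fosb -0.79 to 0.00, Fosl1 -0.22 to 0.34, Fosl2 -0.19 to 0.22, Jun -0.62 to 0.14, Junb -0.29 to 0.07, Jund -0.62 to 0.00, Atf3 -0.64 to 0.06 and Ier2 -0.32 to 0.19. Leaving out the BRAFV600E library at 2 weeks leaves no value for PI3K at 2 weeks. Where it leaves 1 library in a group, that library is assumed to vary like the others. Counts over all genes moved more: for PI3K at 2 weeks from 3 to 107 with all genes that had any value, to 0 with a pseudocount of 4 and to 268 without BRAFV600E/PI3KαH1047R 6 week replicate 1, for 6 against 2 weeks from 9 to 0 with the block, to 1 without BRAFV600E/PI3KαH1047R 2 week replicate 1 and to 102 without the BRAFV600E library at 2 weeks, for PI3K at 6 weeks from 4 to 0 with the block and to 12 without BRAFV600E 12 week replicate 1 or 2, for PI3K at 12 weeks from 2 to 0 with the block and to 16 with all genes, and for PI3K pooled from 4 to 7 with a pseudocount of 4 and to 9 without BRAFV600E/PI3KαH1047R 12 week replicate 1. The depth in reads is unknown, so what it limits could not be assessed.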
